A study of Mus musculus with 37 samples.

Results

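miR-486 is a microRNA encoded inside Ank1, the gene for the membrane skeleton protein of red blood cells ankyrin-1, and its arms were followed in whole blood of aging mice. The members were the mature microRNAs named mmu-miR-486a-5p, mmu-miR-486a-3p, mmu-miR-486b-5p and mmu-miR-486b-3p, which were 4 of the 1915 microRNAs in the count table and took up 7 of its 2241 rows. They were taken by name, and the first row of each was used. All 4 passed the filter on low counts (a count above 100 in 50% or more of the libraries), which kept 87 microRNAs.

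The data are small RNA sequencing counts from total blood of male C57BL/6 mice (the J substrain and wild type, per the study's methods), with no transgene or treatment in any group. There were 37 libraries, of which 9 came from mice of 12 months, 12 from 13.5 months, 5 from 15 months and 11 from 16.5 months of age. All belonged to the learning group, in which the mice were trained in the water maze, a test of spatial memory. By the study's methods, the blood at 12 months was collected before any behavioral experiment and the later blood after the probe tests. A figure legend of the study instead places every collection after a water maze procedure. By either account, rounds of training and of blood collection rose with age. Age, training and repeated bleeding therefore cannot be told apart in any comparison of ages. The study describes this experiment as longitudinal, with the mice bled again at each later age, so libraries of different ages can come from the same mouse. The labels do not tie a library to a mouse. The main tests therefore treated the 37 libraries as independent, which repeated samples of a mouse are not. The p-values measure only the spread between these libraries.

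A microRNA is cut from the stem of a hairpin precursor, and the left and right sides of the stem give the 5p and the 3p arm. Usually 1 arm is loaded into an Argonaute protein and guides it to messenger RNAs, while the other arm is degraded. miR-486 is abundant in red blood cells and in skeletal and heart muscle, where it is transcribed from a promoter within Ank1, and its 5p arm is the guide.

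On GRCm38, the same build as mm10, Ank1 covers chromosome 8 from 22974836 to 23150501 on the plus strand. The precursor gene Mir486, which gives the miR-486a arms, lies on the same strand from 23142555 to 23142682. The precursor gene Mir3107, which gives the miR-486b arms, lies on the opposite strand from 23142573 to 23142662, within the same stretch of DNA. Both are in an intron of Ank1, and the exons nearest to Mir486 are 835 bases before it and 5599 bases after it. Because the precursors lie opposite each other over a palindromic stem, reads of the a and b forms can be hard to separate.

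The mature sequences that follow belong to microRNAs whose levels ran most closely with or against the miR-486 arms across libraries, as given with the results, and miR-92a-3p is added because a ratio below uses it. Each is written 5′ to 3′ from RefSeq on GRCm38.p6, with the seed, the bases 2 to 8 that pair with target messenger RNAs, in capitals. No seed is shared among them. The first group ran with miR-486a-3p, miR-486a-5p or both:
miR-423-5p (chr11:77078122-77078144, minus strand): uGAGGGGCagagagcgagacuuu
let-7d-3p (chr13:48536024-48536045, minus strand): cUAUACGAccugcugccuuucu
miR-676-3p (chrX:100381151-100381171, plus strand): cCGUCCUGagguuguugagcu
miR-744-5p (chr11:65734799-65734820, minus strand): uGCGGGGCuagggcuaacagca
miR-125a-5p (chr17:17830817-17830840, plus strand): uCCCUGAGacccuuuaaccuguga
miR-92a-3p (chr14:115044476-115044496, plus strand, and a copy on chromosome X): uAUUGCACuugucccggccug
The second group ran against them:
miR-451a (chr11:78073186-78073207, plus strand): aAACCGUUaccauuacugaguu
miR-29a-3p (chr6:31062673-31062694, minus strand): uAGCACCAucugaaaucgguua
miR-26b-5p (chr1:74394324-74394344, plus strand): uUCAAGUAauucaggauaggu
miR-15a-5p (chr14:61632075-61632096, minus strand): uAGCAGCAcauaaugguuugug
miR-93-5p (chr5:138165574-138165596, minus strand): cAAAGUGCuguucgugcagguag

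The a and b forms could not be told apart in the deposited counts. The 5p counts of mmu-miR-486a-5p and mmu-miR-486b-5p were equal in 37 of 37 libraries, and so were the 3p counts of mmu-miR-486a-3p and mmu-miR-486b-3p. The values below therefore describe the 5p arm and the 3p arm of miR-486 as a whole, once each, under the names miR-486a-5p and miR-486a-3p.

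Most counted reads were the 5p arm, at 79.6% to 94.3% per library with 1 copy of it kept. mmu-miR-486a-5p had 146863594 reads over the 37 libraries and ranked 1 of 1913 microRNAs by total count, where the copies miR-486b-5p and miR-486b-3p were set aside. The 7 miR-486 rows held 96.2% of the counts of all rows, a share that includes the copies and the second rows. mmu-miR-486a-3p had 41304 reads and ranked 39. The count outside the miR-486 rows was between 139518 and 1130635 per library with a median of 472646, and levels are given against this count, since a total that includes miR-486 would be mostly miR-486 itself.

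These blood libraries also held other microRNAs of red cells, though not all at high counts. The erythroid microRNAs miR-144-3p and miR-363-3p stayed under the filter, with medians of 11 and 10 reads. The filter kept 87 of the 1915 microRNAs in the count table. Of 7 erythroid microRNAs on the marker list, 5 passed the filter, led by miR-92a-3p with 19.5% and miR-25-3p with 9.39% of all outside counts, and the list held between 35.8% and 69.0% of the outside count per library. Of 8 leukocyte microRNAs 6 passed, and their share was between 1.29% and 7.42%. None of the 6 muscle microRNAs passed, and 3 of them, miR-1a-3p, miR-208a-3p and miR-208b-3p, had 0 reads in all 37 libraries. miR-206-3p and miR-499-5p had at most 1 read per library. miR-133a-3p was read in every library, with 3 at the lowest, 21 at the median and 277 reads at the highest. The muscle list reached at most 0.0383% of the outside count, so that the microRNAs that mark muscle, the other tissue rich in miR-486, were close to 0. None of the 3 platelet and endothelial microRNAs passed. Of the 2 liver microRNAs only miR-192-5p passed, which is also made in gut and kidney. In bulk blood, fewer cells of a type and less RNA per cell cannot be told apart.

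The level of the 5p arm was steady compared with that of the 3p arm. At 12 months the libraries had 3.90 at the lowest, 6.74 at the median and 13.5 at the highest reads of miR-486a-5p per outside read. At 13.5 months these values were 4.71, 7.79 and 12.9, and at 16.5 months they were 5.39, 7.56 and 12.8. The 5 libraries of 15 months had 8.59, 9.91, 10.8, 13.1 and 16.6. The highest single value was thus in a library of 15 months, all 5 libraries of that age were above the median of each other age, and the ages overlapped.

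The means were 7.38 ± 3.08 reads of miR-486a-5p per outside read at 12 months (SD, n = 9), 7.82 ± 2.75 at 13.5 months (SD, n = 12), 11.8 ± 3.16 at 15 months (SD, n = 5) and 8.73 ± 2.52 at 16.5 months (SD, n = 11). The test across the 4 ages in the fit of all 87 microRNAs did not pass for miR-486a-5p, with an edgeR quasi-likelihood adjusted p of 0.106. The same test called 44 of the 87 microRNAs, or 50.6%. Of the 6 pairs of ages, the largest log2 differences were 0.68 for 15 against 12 months (SE 0.26, edgeR adjusted p = 0.166) and 0.59 for 15 against 13.5 months (SE 0.25, edgeR adjusted p = 0.0612), and neither passed, where 1.15% and 23.0% of all microRNAs were called. The remaining log2 differences of miR-486a-5p were 0.08 (SE 0.21) for 13.5 against 12 months, 0.24 (SE 0.21) for 16.5 against 12 months, 0.16 (SE 0.20) for 16.5 against 13.5 months and -0.44 (SE 0.25) for 16.5 against 15 months, pairs in which 33.3%, 16.1%, 42.5% and 1.15% of all microRNAs were called. With hidden factors removed by the RUVs method, the test across ages passed for miR-486a-5p, with an edgeR adjusted p of 0.00452 for 1 factor and 0.0192 for 2 factors. It also passed without replicate 2 of 12 months, the highest library of that age (edgeR adjusted p = 0.0312). The pair of 15 and 13.5 months passed without replicate 1 or without replicate 7 of 13.5 months, with log2 differences of miR-486a-5p of 0.68 and 0.66.

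The level of the 3p arm spread far more. At 12 months the lowest library had 105 reads of miR-486a-3p per 1000000 outside reads (RPM), the median was 966 RPM and the highest 6171 RPM. At 13.5 months these values were 433, 2547 and 11377, and at 16.5 months they were 267, 1711 and 10880. The 5 libraries of 15 months had 299, 412, 429, 6156 and 7571. Each age held libraries near both ends, so that the ages overlapped over most of their range, and the 15-month libraries fell into 3 low and 2 high ones with none between.

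**Figure D1:**
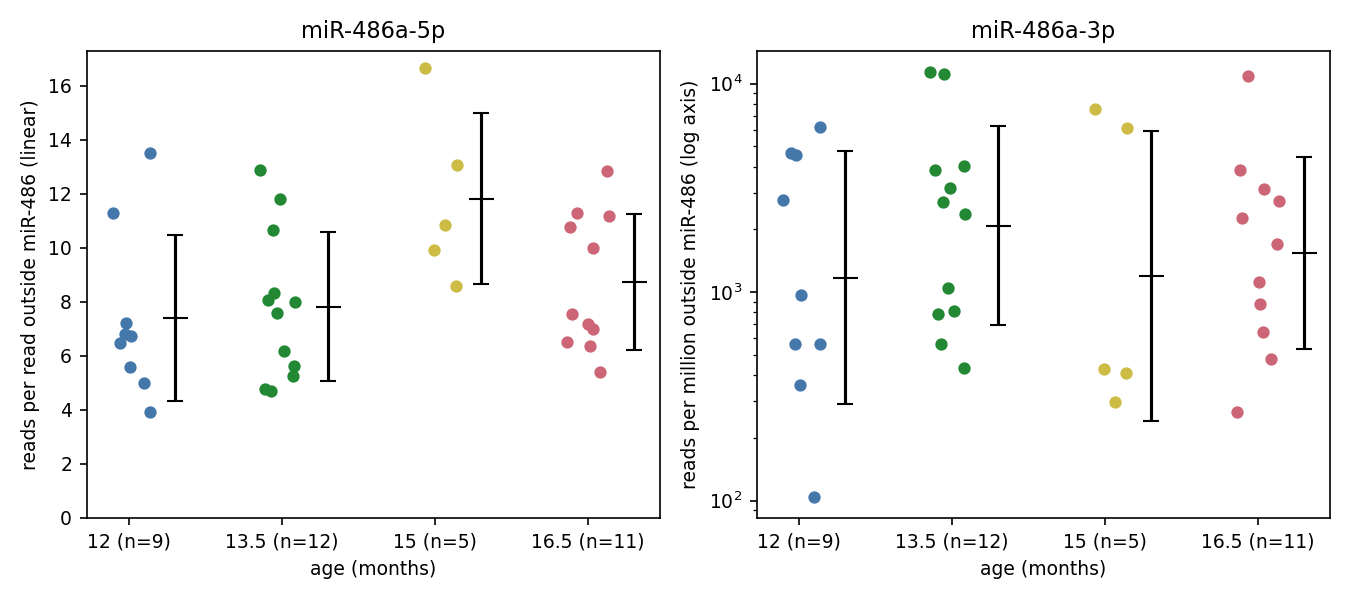
Level of miR-486a-5p (left, reads per read outside the miR-486 rows, linear axis) and of miR-486a-3p (right, RPM, log axis) in each of the 37 libraries by age in months. Points are libraries and bars are the mean ± SD, taken on the log2 scale for miR-486a-3p; the 5p arm ran from 3.90 to 16.6 and the 3p arm from 105 to 11377.

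The log2 RPM of miR-486a-3p had an SD of 1.74 over the 37 libraries, the largest of 85 filtered microRNAs (the copied miR-486b rows left out), whose median SD was 0.58. That of miR-486a-5p was 0.51 and ranked 54. The counts behind miR-486a-3p were 76 to 4788 reads per library. No age difference was detectable for miR-486a-3p against this spread, with an edgeR adjusted p of 0.831 across ages. Its log2 differences ran from -0.47 (SE 0.67, edgeR adjusted p = 0.587) for 16.5 against 13.5 months to 0.62 (SE 0.71, edgeR adjusted p = 0.54) for 13.5 against 12 months. Several of these small differences of miR-486a-3p changed sign when 1 library or the scaling was changed.

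Several of the marker microRNAs changed with age. Of the 5 erythroid microRNAs over the filter, 4 passed the test across ages, beside 50.6% of all microRNAs. Between 13.5 and 12 months, where 33.3% of all microRNAs were called, miR-92a-3p, an abundant microRNA of the red cell lineage, rose by 1.30 on the log2 scale (SE 0.31, edgeR adjusted p = 0.00182). That rise is from the first row of miR-92a-3p. With repeated rows summed it was 1.16 (SE 0.30, edgeR adjusted p = 0.00404). miR-451a, which is made without Dicer and supports red cell maturation, fell by 1.37 on the log2 scale (SE 0.41, edgeR adjusted p = 0.00942). Both kept their direction and their call between 13.5 and 12 months under every alternative run, with log2 differences from 0.71 to 1.88 for miR-92a-3p and from -1.87 to -0.67 for miR-451a. Across ages miR-92a-3p was also called under each of them, while miR-451a was not called with the total of all first rows (edgeR adjusted p = 0.0722) and in 10 of the 37 fits that each left out 1 library (replicates 1, 4, 7 and 8 of 12 months and 2, 4, 5, 6, 8 and 9 of 13.5 months, with an edgeR adjusted p of up to 0.103). Of the 4 erythroid microRNAs called between 13.5 and 12 months 2 were higher (1 of 3 with the total of all first rows), a direction called for 11.5% of all microRNAs, and the median log2 difference of the list was -0.33, against -0.01 over all 87. Also called on the erythroid list between 13.5 and 12 months was miR-144-5p, which fell by 1.69 on the log2 scale (SE 0.31, edgeR adjusted p = 7.56e-05). miR-25-3p rose by 0.38 (SE 0.12, edgeR adjusted p = 0.0176). The split of all calls between 13.5 and 12 months depended on the scaling. It was 10 higher and 19 lower as given, 23 and 19 with TMM factors, 21 and 19 with DESeq2 factors, 22 and 19 with the authors' factors, 28 and 14 with the total outside the erythroid list, and 2 and 8 with the total of all first rows. Those scalings moved the median over all microRNAs to 0.17, 0.15, 0.20, 0.33 and -0.09 log2 units, in that order, and the median of the erythroid list to -0.22, -0.24, -0.20, -0.07 and -0.42. Of the 6 leukocyte microRNAs, 3 passed across ages, and between 1 and 4 did under these scalings. The part of these shifts in the miR-486 levels was not tested.

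The share of reads that were miR-486a-5p was computed with the copy miR-486b-5p set aside. It was lowest at 79.6% and highest at 94.3% among the 37 libraries. At 12 months the share was 86.8% ± 4.09 (SD, n = 9), at 13.5 months 87.6% ± 3.58 (SD, n = 12), at 15 months 91.8% ± 1.81 (SD, n = 5) and at 16.5 months 89.0% ± 2.76 (SD, n = 11). The 15-month libraries had 89.6%, 90.8%, 91.5%, 92.8% and 94.3%, and all 5 were above the median of 12 months (87.1%) and of 13.5 months (88.6%).

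On the log2 odds scale the share differed across ages at the threshold (permutation test with 100000 resamples, p = 0.0471). The 15-month libraries were higher by 0.74 log2 odds than those of 12 months (exact permutation p = 0.0235, adjusted over 6 pairs 0.0704) and by 0.64 than those of 13.5 months (exact permutation p = 0.0221, adjusted 0.0704). Neither pair passed once adjusted, nor did any of the other 4 pairs, but without replicate 2 of 12 months the share was higher at 15 than at 12 months by 0.86 log2 odds (exact permutation test, adjusted p = 0.0373). Over pairs of libraries, the 15-month library had the higher share in 38 of 45 pairs with 12 months and in 52 of 60 pairs with 13.5 months. The result across ages rests on few libraries: without replicate 1 of 15 months, the library with the highest share and the lowest outside count of its age (148074), the permutation p was 0.158, and without replicate 3 of that age it was 0.103. It passed in 14 of the 37 tests that each left out 1 library. Without the 4 libraries under 200000 outside counts it was 0.0659, and with medians in place of means it was 0.558.

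The ratio of the arms was high in every library and varied widely. Per read of miR-486a-3p there were between 744 and 47538 reads of miR-486a-5p, a 63.9-fold range, with a median of 6368. The 3p arm was therefore between 0.0021% and 0.134% of the reads of both arms. At 12 months the ratio was 1397 at the lowest, 6909 at the median and 47538 at the highest, and at 13.5 months 744, 3819 and 12147. At 16.5 months it was 1037, 6368 and 24435, and the 5 libraries of 15 months had 2123, 2199, 20863, 23082 and 36275.

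No difference in the arm ratio between ages was detectable against the spread within ages. The log2 ratio, with 0.5 reads added to each arm, was 12.5 ± 1.67 at 12 months (SD, n = 9), 11.8 ± 1.39 at 13.5 months (SD, n = 12), 13.2 ± 1.99 at 15 months (SD, n = 5) and 12.4 ± 1.23 at 16.5 months (SD, n = 11). Across ages the permutation p was 0.34 (100000 resamples). The largest of the 6 pairwise differences was 1.43 log2 units for 15 against 13.5 months (exact permutation p = 0.106, adjusted 0.488), and the smallest was -0.11 for 16.5 against 12 months (exact permutation p = 0.873, adjusted 0.873). Of 6 hairpins with both arms over the filter, miR-486a had the widest spread of the log2 arm ratio, with an SD of 1.51. It was followed by miR-423 with 0.79. Across libraries the log2 arm ratio of miR-486a had an r of -0.78 with that of miR-423 and of 0.62 with that of miR-151. With let-7d, miR-130b and miR-30a the r was 0.37, -0.28 and 0.04. These r are descriptions with no test.

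**Figure D2:**
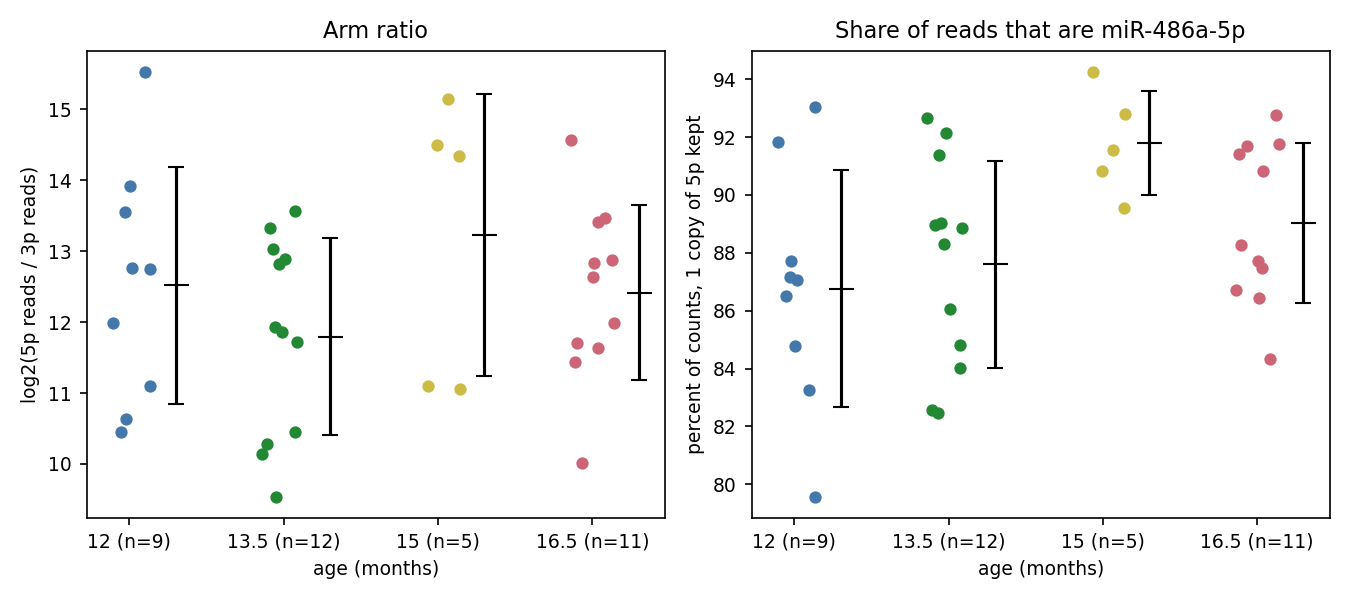
Log2 ratio of miR-486 5p to 3p reads (left) and the share of reads that were miR-486a-5p in percent, with 1 copy kept (right), by age in months. Points are libraries and bars the mean ± SD; the arm ratio overlapped between ages, with means from 11.8 to 13.2, and the share was 91.8% at 15 months and 86.8% to 89.0% at the other ages.

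Across the 37 libraries the arms rose and fell together. The log2 levels of miR-486a-5p and miR-486a-3p had a Pearson r of 0.56 (permutation p = 0.00041, adjusted over 5 relations 0.00102) and a Spearman rho of 0.54 (permutation p = 0.00068, adjusted 0.002), and r was 0.50 without the 2 libraries farthest from the median. Within ages r was 0.70 at 12 months, 0.53 at 13.5 months and 0.78 at 16.5 months, and 15 months had too few libraries. Both levels share the outside count as the denominator, which can itself raise their r. miR-486a-5p also went with that count itself, with an r of -0.56 with its log2 (permutation p = 0.00041, adjusted 0.00102), a rho of -0.54 (permutation p = 0.0008, adjusted 0.002) and r -0.47 without the 2 farthest libraries. Within ages this r was -0.60, -0.42 and -0.92 at 12, 13.5 and 16.5 months. That count is the denominator of the level, so that a negative r can arise without any relation of the 5p reads to it. The permutation p therefore cannot decide whether the 5p reads and the outside count are related.

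The number of microRNAs detected went the same way, with an r of -0.52 with miR-486a-5p (permutation p = 0.00095, adjusted 0.00158), a rho of -0.49 (permutation p = 0.00208, adjusted 0.00347) and r -0.53 without the 2 farthest libraries. Within ages it was -0.63, -0.40 and -0.91. The fewest microRNAs, 283, were detected in a library of 159003 outside counts (replicate 1 of 13.5 months). The most, 544, were detected in one of 1115047 (replicate 4 of 15 months). Since that count is the denominator of the level, a negative r with the number detected can also arise without any relation to the 5p reads. The permutation p cannot decide this either. For the summed erythroid list (r -0.14, permutation p = 0.417, rho -0.18, permutation p = 0.28) and the leukocyte list (r -0.13, permutation p = 0.445, rho -0.16, permutation p = 0.353) no relation with miR-486a-5p was detectable. Without the 2 farthest libraries these r were -0.33 and -0.02.

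Among the 83 other filtered microRNAs, those most like miR-486a-5p by Pearson r of log2 levels over the 37 libraries were miR-151-3p (0.70), miR-125a-5p (0.64), let-7d-3p (0.64), miR-328-3p (0.64) and miR-423-5p (0.64). Those least like it were miR-15a-5p (-0.65), miR-29a-3p (-0.64) and miR-93-5p (-0.62). These r are descriptions and share the outside count. The 5 most like it were the same with Spearman's rho, with deviations from the age means and with TMM scaling, while 1 of the 3 least like it was the same under each. miR-151-3p comes from an intron of the kinase gene Ptk2.

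The ranking for the 3p arm was chosen after its values were seen. The level of miR-486a-3p ran with miR-423-5p at an r of 0.96, with let-7d-3p at 0.91, with miR-328-3p at 0.88, with miR-676-3p at 0.86 and with miR-744-5p at 0.85. Against it ran miR-451a (-0.85), miR-29a-3p (-0.83) and miR-26b-5p (-0.82). Of the 83 microRNAs, 20 had an r above 0.5 with miR-486a-3p and 27 an r below -0.5, against 7 and 8 with miR-486a-5p. These counts depended on the measure. For miR-486a-5p they were 8 and 7 with Spearman's rho, 12 and 16 with deviations from the age means and 22 and 8 with TMM scaling, and for miR-486a-3p they were 19 and 26, 20 and 27, and 26 and 18, in the same order. Within ages, r between miR-486a-3p and miR-423-5p was 0.97 at 12 months, 0.98 at 13.5 months and 0.96 at 16.5 months, and with miR-451a it was -0.96, -0.94 and -0.95.

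The opposite movement of miR-451a and miR-92a-3p, both on the erythroid list, was put beside the arm ratio, again after the values were seen. Of the list members over the filter, only miR-92a-3p ran against the log2 arm ratio (r -0.84). The log2 levels of miR-451a (r 0.83), miR-16-5p (0.55), miR-144-5p (0.26) and miR-25-3p (0.25) ran with it, so the list did not split evenly. miR-451a ran from 0.517% to 29.7% of the outside count among libraries, and miR-92a-3p from 5.54% to 59.0%. The log2 ratio of miR-451a to miR-92a-3p reads, which uses no miR-486 row, had an r of 0.85 and a rho of 0.84 with the log2 arm ratio over the 37 libraries. This is a description with no test, since miR-451a was picked for running against miR-486a-3p and the arm ratio holds miR-486a-3p. Without the 2 farthest libraries r was 0.83, and within ages it was 0.92 at 12 months, 0.93 at 13.5 months and 0.94 at 16.5 months. The lowest arm ratio, 744, belonged to replicate 4 of 13.5 months, where miR-451a was at 9528 RPM. The highest, 47538, belonged to replicate 7 of 12 months, where miR-451a was highest among all libraries at 296847 RPM.

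The arm ratio was also set against 4 measures of the libraries, with p-values adjusted over these 4 relations, and none passed by rho once adjusted. Its r was 0.36 with the log2 outside count (permutation p = 0.03, adjusted 0.0401, rho 0.35 with permutation p = 0.0358, adjusted 0.118) and 0.34 without the 2 farthest libraries. Within ages this r was 0.31, 0.23 and 0.46 at 12, 13.5 and 16.5 months. With the number of microRNAs detected r was 0.40 (permutation p = 0.0146, adjusted 0.0293, rho 0.31 with permutation p = 0.059, adjusted 0.118) and 0.28 without the 2 farthest libraries, and within ages 0.18, 0.34 and 0.41. With the erythroid list share r was -0.43 (permutation p = 0.00848, adjusted 0.0293, rho -0.22 with permutation p = 0.198, adjusted 0.264) and -0.24 without the 2 farthest libraries, but within ages it was 0.50 at 12 months, -0.91 at 13.5 months and -0.16 at 16.5 months, so that the pooled value did not hold within ages. With the leukocyte list share r was 0.29 (permutation p = 0.0809, adjusted 0.0809, rho 0.18 with permutation p = 0.294, adjusted 0.294) and 0.06 without the 2 farthest libraries, and within ages -0.58, 0.90 and -0.37.

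The G and C content of the printed microRNAs overlapped between the groups. In the first group it was 63.6% in miR-744-5p, 57.1% in miR-676-3p and miR-92a-3p, 56.5% in miR-423-5p and 50.0% in let-7d-3p and miR-125a-5p. In the second group it was 52.2% in miR-93-5p, 40.9% in miR-29a-3p and miR-15a-5p, 36.4% in miR-451a and 33.3% in miR-26b-5p. A sequence was matched for 73 of the 83 microRNAs (88.0%). Over these 73, the GC percentage had an r of 0.41 and a rho of 0.43 with the likeness to miR-486a-3p, and of 0.49 and 0.47 with the likeness to miR-486a-5p. These are descriptions across microRNAs, which are not independent, and the part of base composition in the arm levels was not tested. The 17 matched microRNAs with an r above 0.5 with miR-486a-3p had a median GC of 50.0%, and the 25 with an r below -0.5 had 40.9%, with ranges of 36.4% to 65.2% and 33.3% to 57.1% that overlap.

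**Figure D3:**
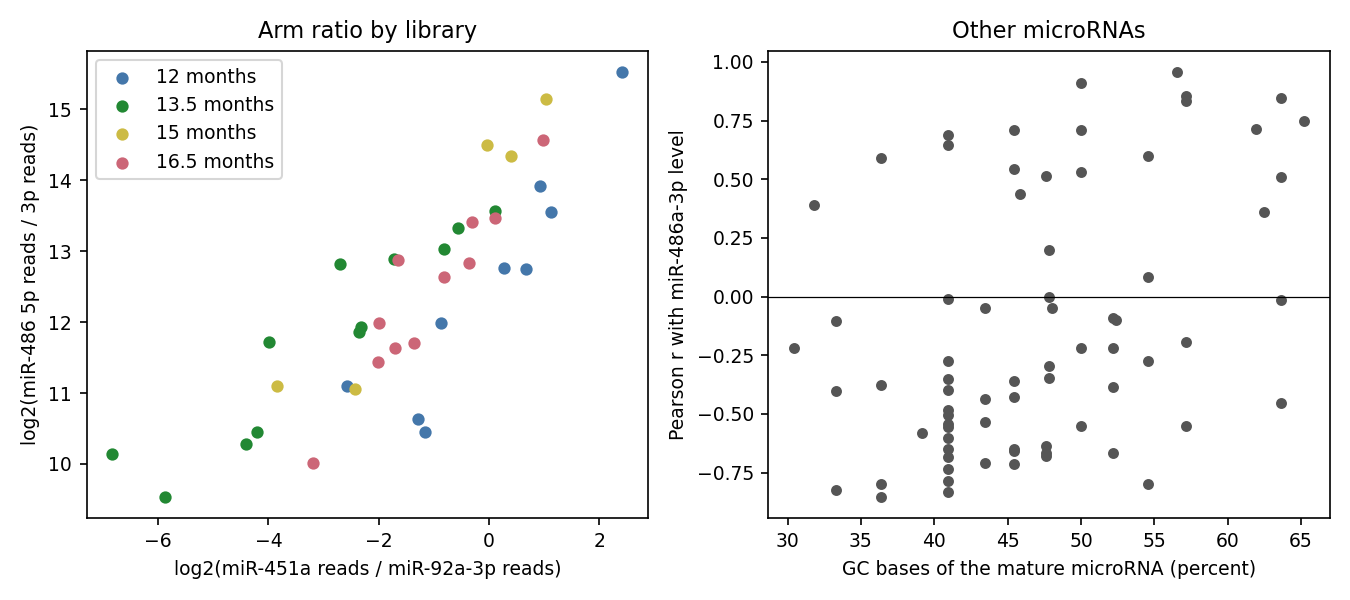
Left, log2 ratio of miR-486 5p to 3p reads against the log2 ratio of miR-451a to miR-92a-3p reads, 1 point per library, colored by age (r = 0.85 over 37 libraries). Right, GC percentage of the 73 other microRNAs with a sequence against their Pearson r with the level of miR-486a-3p (r = 0.41 across microRNAs).

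Of the members, all but miR-486a-3p were listed on a second row, and these rows were compared after the data had been seen. The deposited table repeats some microRNA names on a further row and does not name the precursor of a row. The second rows of miR-486a-5p and miR-486b-5p were again the same in 37 of 37 libraries. The second row of miR-486b-3p held 12 to 1053 reads per library, between 12.1% and 28.2% of the first row, and miR-486a-3p had no second row.

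The second-row count of miR-486b-3p in percent of the first was higher in the oldest mice. Whether the reads of both rows are the same reads is not given in the sources used here. At 12 months it was lowest at 15.2%, with a median of 20.6% and a highest value of 24.7%, and at 13.5 months 12.1%, 18.9% and 26.3%. The libraries of 15 months had 20.04%, 22.0%, 23.1%, 23.2% and 26.1%, and those of 16.5 months were lowest at 21.9%, with a median of 26.0% and a highest value of 28.2%. All 11 libraries of 16.5 months were above the medians of 12 and 13.5 months, although the ranges overlapped.

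The means were 19.2% ± 3.55 (SD, n = 9), 19.8% ± 3.94 (SD, n = 12), 22.9% ± 2.19 (SD, n = 5) and 25.3% ± 2.10 (SD, n = 11) from the youngest to the oldest age. They differed across ages (permutation p = 0.00043, 100000 resamples). Libraries of 16.5 months were higher by 6.08 percentage points than those of 12 months (exact permutation p = 0.000179, adjusted over 6 pairs 0.00107) and by 5.50 than those of 13.5 months (permutation p = 0.00048, adjusted 0.00144). None of the other 4 pairs passed with all libraries. Without replicate 6 of 12 months, 15 months was higher than 12 months by 4.37 percentage points (exact permutation test, adjusted p = 0.0389), and without replicate 2 of 15 months, 16.5 months was higher than 15 months by 3.19 (exact permutation test, adjusted p = 0.0366). The first row holds few reads in some libraries: in the library with 76 reads of miR-486a-3p the second row held 12 and the percentage was 15.8%.

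The 5p counts differed between the rows by less than 1%, and with another order of ages. The second-row count of miR-486b-5p was lower than the first-row count by 0.385% ± 0.0608 at 12 months (SD, n = 9), 0.537% ± 0.0637 at 13.5 months (SD, n = 12), 0.509% ± 0.125 at 15 months (SD, n = 5) and 0.370% ± 0.0379 at 16.5 months (SD, n = 11). This difference in percent of the first row varied across ages (permutation p = 1e-05, the smallest possible with 100000 resamples). It was higher at 13.5 than at 12 months by 0.152 percentage points (exact permutation p = 8.51e-05, adjusted 0.000255), in 103 of 108 pairs of libraries. It was lower at 16.5 than at 13.5 months (difference -0.167, permutation p = 2e-05, adjusted 0.00012) and than at 15 months (difference -0.140, exact permutation p = 0.00481, adjusted 0.00962), and higher at 15 than at 12 months (0.125, exact permutation p = 0.027, adjusted 0.0405). The difference of 15 against 12 months was called less firmly than the others, since its adjusted permutation p was 0.0689 on the log2 odds scale and the call was kept in 28 of the 37 tests that each left out 1 library. For 16.5 against 12 months (exact permutation p = 0.508, adjusted 0.564) and 15 against 13.5 months (exact permutation p = 0.564, adjusted 0.564) no difference was detectable.

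**Figure D4:**
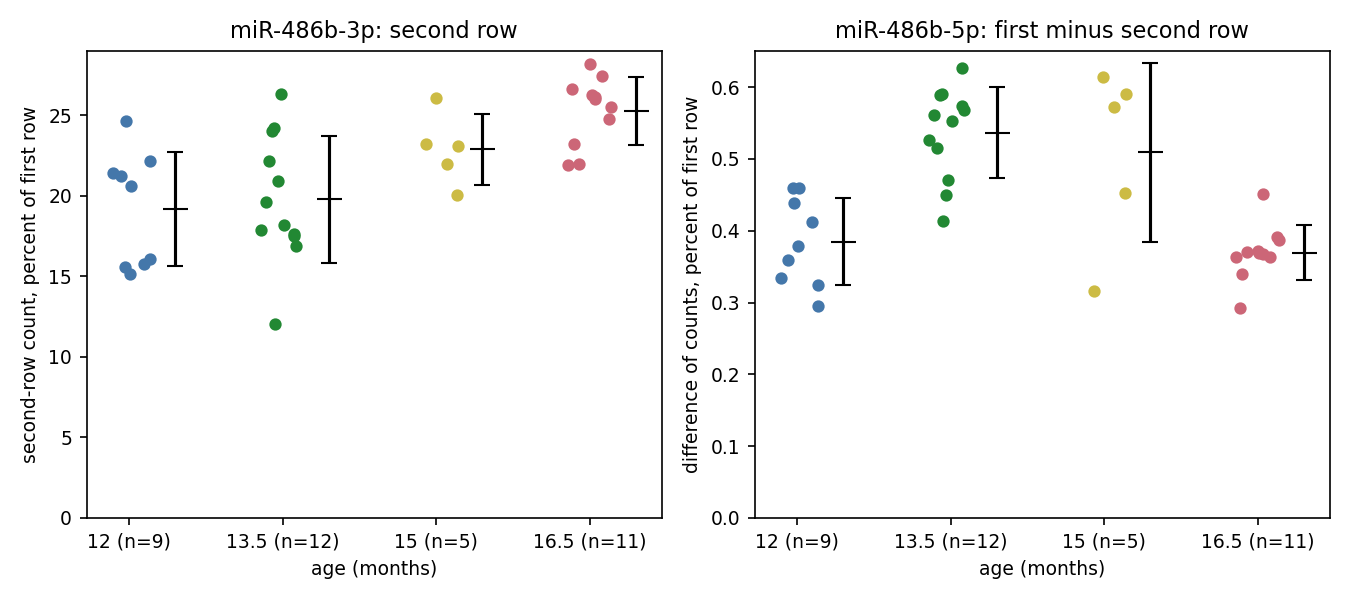
Count on the second row of miR-486b-3p in percent of the first row (left) and first-row minus second-row count of miR-486b-5p in percent of the first row (right), by age in months. Points are libraries and bars the mean ± SD; the 3p percentage was 25.3% at 16.5 months and 19.2% at 12 months, while the 5p percentage was 0.537% at 13.5 months and 0.370% at 16.5 months.

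Rows that differ were not particular to miR-486. Among other filtered microRNAs with 2 rows, the second-row count of miR-92a-3p was lower than the first by 55.4%, 67.9%, 54.3% and 54.6% of the first at 12, 13.5, 15 and 16.5 months. For miR-128-3p these means were 10.3%, 8.89%, 7.87% and 9.56%, and for let-7f-5p the second row was the larger at every age. The age differences of the rows in these other microRNAs were not tested.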

How the data were processed

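Small RNA of mouse total blood was sequenced as 50-base single reads with the TruSeq Small RNA kit. Per the study's methods, the authors trimmed reads with cutadapt, checked them with FastQC 0.11.5, and ran miRDeep2 on mm10 with miRBase to count them, allowing no mismatch, discarding short reads and accepting a few bases of offset at the ends of the mature position. The authors deposited whole-number counts, 2241 rows for 1915 microRNAs, and normalized signal values for 337 microRNAs. Of 11732 nonzero normalized values, 100% equalled the first-row count times 1 factor per library within 0.01%, and only these factors were used, as an alternative scaling. There were 0 columns of other samples. The authors' tests used DESeq2 with RUVs factors, whose number is not given in the sources used here.

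MicroRNAs were taken from their first rows. Library size was the total of first rows outside the miR-486 rows, between 139518 and 1130635, without further scaling. The 87 microRNAs with counts above 100 in 50% or more of libraries entered 1 edgeR 4.0.16 fit (R 4.3.3) with age as a factor, with a quasi-likelihood F-test across ages, contrasts for 6 pairs, Benjamini-Hochberg adjustment and a threshold of 0.05. The biological coefficient of variation was 0.408. Arm ratios, with 0.5 reads added, and shares were compared with permutation tests (numpy 2.4.6). Across the 4 ages the statistic was the sum of squares between ages, with 100000 resamples. Pairs of ages were compared by the two-sided difference in means. This used full enumeration if either group was under 10 libraries, else 100000 resamples. Likeness used log2(RPM + 1), RPM being reads per 1000000 outside reads. PCR copies were not separated. No libraries of an age were duplicates, since the lowest chi-square per degree of freedom between them was 31.7.

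Tests were tried on simulated data. The text names the 4 members, the 5 microRNAs most and the 3 least like miR-486a-5p, and markers of the erythroid, muscle and liver lists. Leukocyte, platelet and endothelial markers are given as counts only. The members and lists were chosen with earlier results of these data known. The second rows, the likeness to miR-486a-3p and the relations of the arm ratio were added after seeing the data. Alternatives covered scaling, filter, tool, RUVs factors, replicate block, summed rows, pseudocount, medians, shallow libraries and each library left out. Other samples of the study were not analysed here.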

Additional observations from a re-analysis of the deposited data

How the results depend on the processing

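Across ages, miR-486a-3p and the arm ratio stayed short of the threshold under every alternative run, and miR-486a-5p under all but the RUVs factors (edgeR adjusted p 0.00452 with 1 and 0.0192 with 2 factors, which also called 2 of its pairs each, 15 against 12 and 15 against 13.5 months) and 1 library: leaving out each library in turn gave adjusted p from 0.0312 (without replicate 2 of 12 months) to 0.320. The cause was not tested. Leaving out single libraries called 0 or 1 of the 12 pairs of both arms. It also called the share for 15 against 12 months (without replicate 2 of 12 months) and the 3p second-row percentage for 15 against 12 months (without replicate 6 of 12 months) and 16.5 against 15 months (without replicate 2 of 15 months). The 44 microRNAs called across ages became 96 of 323 tested with a filter of more than 1 read, 78 of 960 with no filter, and 68 and 67 with 1 and 2 RUVs factors.

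The share of miR-486a-5p across ages lost its call with both 5p rows kept (permutation p 0.0555), with medians (0.558), without the shallow libraries (0.0659, chosen after seeing the data) and with the replicate block (0.116). Without single libraries it lay between 0.0141 and 0.158.

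Only differences short of the threshold changed sign. For log2 miR-486a-5p these were -0.16 and -0.094 (1 and 2 RUVs factors, 13.5 against 12 months) and -0.18, -0.021, -0.053 and -0.33 (16.5 against 13.5 months with TMM, DESeq2 factors, the authors' factors, and the total without erythroid microRNAs). For log2 miR-486a-3p, 13.5 against 12 months was -0.61 and -0.25 with 1 and 2 RUVs factors. For 15 against 12 months miR-486a-3p was -0.37 with the total of all rows, -0.37 and -0.51 with 1 and 2 RUVs factors, -0.12 with the replicate block and -0.30 without shallow libraries. For 16.5 against 12 months it was -0.094 with the total of all rows and -0.48 and -0.53 with 1 and 2 RUVs factors. With 1 RUVs factor, 15 and 16.5 against 13.5 months were 0.24 and 0.12. For 16.5 against 15 months miR-486a-3p was 0.28 with the total of all rows, 0.40 with the replicate block and 0.53 without shallow libraries. With medians, the share for 16.5 against 13.5 months was -0.043 log2 odds, the second-row 3p count in percent of the first for 13.5 against 12 months -1.73, and the first minus second-row 5p count in percent of the first for 15 against 13.5 months 0.0158 (0.0199 without shallow libraries).

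Leaving out single libraries moved these uncalled differences over 0. For log2 miR-486a-5p the range was -0.0047 to 0.24 (13.5 against 12 months). For log2 miR-486a-3p it was -0.34 to 0.71 (15 against 12 months), -0.43 to 0.49 (16.5 against 12 months), -0.95 to 0.077 (15 against 13.5 months) and -0.79 to 0.48 (16.5 against 15 months). For the log2 arm ratio it was -0.36 to 0.27 (16.5 against 12 months), and for the share -0.0032 to 0.22 log2 odds (13.5 against 12 months). For these second-row percentages it was -0.0073 to 1.29 percentage points for 3p (13.5 against 12 months) and -0.054 to 0.021 for 5p (15 against 13.5 months).

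Whether the replicate numbers mark the same mouse is not given. Same-numbered libraries deviated with a mean correlation of -0.024 over 44 pairs (-0.79 to 0.75), of which 18 were above 0.1. Of 36 libraries, 1 correlated best with its own number. These values cannot decide whether the numbers mark mice, since the spread between libraries can hide a likeness within a mouse. With the replicate block 52 microRNAs were called, and for the second-row percentage of 5p the calls for 15 against 12 months (adjusted permutation p 0.188) and 16.5 against 15 months (0.188) were lost, in tests over 5 pairs that cannot pass.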
